A study of Mus musculus with 12 samples.

Results

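The genes described here encode the signalling chains of the B-cell receptor, its coreceptors and other B-lineage surface proteins, a B-lineage kinase and 2 transcription factors of B cells: Cd79a, Cd79b, Cd22, Cr2, Fcer2a, Ms4a1, Blk, Pax5 and Ebf1. They were chosen by symbol, with the difference between genotypes already known, and make up 9 of the 26609 genes in the deposited count table. All 9 had a row and passed the filter on low counts, as did 13692 genes in all. RNA-seq had been done on regulatory T cells (Tregs), which were sorted by flow cytometry as single CD4+CD25hiCD127lo cells out of mesenteric lymph nodes. The mice were of the SAMP/YitFC strain, a line known for spontaneous inflammation of the ileum. The 4 groups of 3 libraries each were, by title, ERb-KO females, ERb-KO males, WT females and WT males, where ERb-KO (KO below) is a global loss of estrogen receptor beta, the product of Esr2. No group was treated, and age and the number of mice behind a library were not given in the sources used here. P-values therefore measure the spread between these samples, which may be technical.

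The B-cell receptor is a membrane immunoglobulin paired with CD79A and CD79B, whose cytoplasmic tails recruit kinases such as BLK when antigen binds. The coreceptor CR2 (CD21), which binds complement fragments, lowers the threshold of the response, while CD22 binds sialic acids and dampens it. PAX5 and EBF1 are the transcription factors that set up the B-cell programme, and mature T cells, Tregs included, are not known to use this gene set as a programme of their own. The levels of these 9 genes are described here in sorted Treg samples, and which cells their RNA came from was not tested. In a bulk library, fewer cells of a type and less RNA per cell cannot be told apart.

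The libraries held 10200506 to 16748380 counted reads, and KO libraries were on the whole the shallower ones. A floor of 3 counts corresponded to 0.176 to 0.291 CPM (counts scaled to library size), for counting error only. Esr2 did not follow the titles: it had 10.9, 8.05 and 11.7 CPM in the KO females, 0.646, 0.144 and 9.22 CPM in the KO males, 0, 8.79 and 12.3 CPM in the WT females and 0, 0.069 and 0.895 CPM in the WT males. A count per gene does not say which exons the reads came from, and the labels do not name the deleted part. The counts of Xist and of Y-linked genes went against the titled sex in 4 libraries, those titled KO female 1, KO male 1, KO male 2 and WT female 2. Groups below are therefore groups by title, and results are also given without these 4 libraries. That step leaves KO male 3 as the only KO male library. It does not remove the doubt about the genotype titles. In the KO libraries left, Esr2 had 8.05, 11.7 and 9.22 CPM. The WT libraries left had 0, 12.3, 0, 0.069 and 0.895 CPM of it. The title WT male #2 occurs on a pair of libraries; the second of them is called WT male 3.

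Treg and T-cell genes were abundant in every library. Foxp3, the Treg transcription factor, ranged from 582.8 to 926 CPM, Cd4 from 464.7 to 733 CPM and Cd3e, a chain of the T-cell receptor complex, from 581.6 to 1216 CPM. The summed level of 9 T-cell and Treg markers was 5165 to 6378 CPM in KO libraries and 4846 to 5758 CPM in WT libraries, and none of the 9 passed the test between genotypes. The summed level of the 9 B-cell genes was 149 to 332 CPM (median 246) in KO libraries and 39.4 to 194 CPM (median 63.9) in WT libraries.

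Cd79a lies on chromosome 7 (24897381-24902197, plus strand), Cd22 on chromosome 7 (30865402-30880342, minus strand), Cd79b on chromosome 11 (106311341-106314762, minus strand) and Ebf1 on chromosome 11 (44617317-45008091, plus strand) of GRCm38, by GENCODE vM21. Cr2 is on chromosome 1 (195136811-195176716), Fcer2a on chromosome 8 (3681737-3694175), Ms4a1 on chromosome 19 (11249675-11266241), Blk on chromosome 14 (63372836-63417037) and Pax5 on chromosome 4 (44524757-44710487), all on the minus strand. Exons of an antisense gene, Gm29439, overlap 9.5% of the exonic length of Cd22, and exons of Gm12462 and 5730488B01Rik overlap 8.6% of that of Pax5. The library kit does not mark strand, so reads there cannot be assigned to one gene.

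RefSeq promoter windows (GRCm38.p6, 300 bases around a start site) were at hand for 6 of the 9 genes, 9 windows in all; Ms4a1, Cd79b and Blk had no entry. The windows were searched on both strands for a core of EBF1 sites (CCCNNGGG), the octamer of OCT factors (ATTTGCAT) and a PU.1-like core (TTCCTC). The 2 windows printed below, each 5′ to 3′ on the gene's strand, are those of the receptor chain Cd79a and the coreceptor Cd22, which differ in the letters they hold; capitals mark a match.
Cd79a promoter, chr7:24897247-24897546, plus strand: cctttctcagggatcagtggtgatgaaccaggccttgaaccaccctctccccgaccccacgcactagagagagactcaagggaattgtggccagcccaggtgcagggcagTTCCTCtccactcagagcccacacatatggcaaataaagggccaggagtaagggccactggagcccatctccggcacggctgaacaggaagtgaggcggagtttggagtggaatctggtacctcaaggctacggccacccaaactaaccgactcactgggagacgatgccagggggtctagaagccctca
Cd22 promoter, chr7:30878979-30879278, minus strand: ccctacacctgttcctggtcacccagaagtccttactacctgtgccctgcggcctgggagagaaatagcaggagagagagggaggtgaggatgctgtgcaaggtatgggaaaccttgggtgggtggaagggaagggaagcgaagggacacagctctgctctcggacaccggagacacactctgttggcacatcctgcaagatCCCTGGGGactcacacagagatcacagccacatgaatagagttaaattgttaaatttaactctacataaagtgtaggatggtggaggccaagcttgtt
The Cd79a window held TTCCTC 140 bases upstream of the start site, and the Cd22 window held an EBF1 core 48 bases upstream. One of the windows of Ebf1 held TTCCTC 130 bases upstream, and the windows of Cr2, Pax5 and Fcer2a held none of the 3 motifs. Over all 32851 RefSeq mouse promoter windows of this length, 13.67% held CCCNNGGG, 1.735% the octamer and 28.28% TTCCTC. A match of letters is a description and not a bound site. Only these exact letters were searched, so a window without a match, such as that of Cd79a for CCCNNGGG, is not shown to lack a site.

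Cd79a, the first of the paired signalling chains, had 26.9, 41.4 and 61.1 CPM in KO females, 46.8, 25.3 and 48.5 CPM in KO males, 29.6, 16.4 and 3.95 CPM in WT females and 7.85, 3.65 and 6.39 CPM in WT males. All KO male libraries lay above all WT male libraries, while WT female 1 lay above KO female 1 and KO male 2. Its mean was 41.7 ± 13.7 CPM in KO libraries and 11.3 ± 10.1 CPM in WT libraries (SD, n = 6 each). The log2 fold change, KO minus WT averaged over the sexes, was 2.06 (SE 0.375).

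Cd79b, the partner chain, had the highest level of the 9 genes per kilobase of exon and the smallest ratio of highest to lowest library. It had 48.9, 86.8 and 81.2 CPM in KO females, 69.97, 54.1 and 76.7 CPM in KO males, 50.6, 43.6 and 37.5 CPM in WT females and 48.6, 43.4 and 27.8 CPM in WT males. Its KO mean of 69.6 ± 15.1 CPM stood against a WT mean of 41.9 ± 8.30 CPM (SD, n = 6 each), and its log2 fold change was 0.73 (SE 0.174). Unlike the other 8 genes, Cd79b kept 27.8 to 48.6 CPM in the 3 WT male libraries and WT female 3, where Cd79a had 3.65 to 7.85 CPM.

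Cd22, the sialic acid-binding inhibitory coreceptor, had 26.4, 30.4 and 80.4 CPM in KO females, 32.3, 28.6 and 53.5 CPM in KO males, 41.9, 21.8 and 9.13 CPM in WT females and 2.64, 1.52 and 2.43 CPM in WT males. WT male libraries stood apart at the low end, and WT female 1 had rank 3 of the 12 libraries. The mean was 41.9 ± 21.3 CPM in KO libraries and 13.2 ± 16.0 CPM in WT libraries (SD, n = 6 each). Its log2 fold change was 4.11 (SE 0.566) in titled males and 0.91 (SE 0.481) in titled females.

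Cr2, the complement receptor, had 15.5, 24.2 and 21.4 CPM in KO females, 18.4, 8.07 and 22.3 CPM in KO males, 23.1, 10.6 and 1.78 CPM in WT females and 1.52, 0.207 and 0.959 CPM in WT males. WT female 1 was above 5 of the 6 KO libraries, and the 3 counts of WT male 2 equal the floor. Cr2 averaged 18.3 ± 5.88 CPM in KO libraries and 6.35 ± 9.04 CPM in WT libraries (SD, n = 6 each), with a log2 fold change of 2.46 (SE 0.499). Fcer2a, the low-affinity IgE receptor (CD23) of follicular B cells, had 15.1, 21.2 and 31.9 CPM in KO females, 21.0, 13.9 and 19.3 CPM in KO males, 19.5, 7.999 and 2.17 CPM in WT females and 2.69, 0.552 and 0.256 CPM in WT males. The 3 WT male libraries and WT female 3 were the 4 lowest, and WT female 1 was at rank 4 of 12. The log2 fold change of Fcer2a was 2.56 (SE 0.499).

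Ms4a1, which encodes CD20, had 16.0, 41.5 and 36.5 CPM in KO females, 29.7, 10.1 and 42.3 CPM in KO males, 18.5, 9.26 and 4.26 CPM in WT females and 1.70, 0.138 and 0.767 CPM in WT males. It had 2 counts in WT male 2, under the floor of 3, and 436 counts in KO male 3. Ms4a1 averaged 29.3 ± 13.5 CPM in KO libraries and 5.77 ± 7.08 CPM in WT libraries (SD, n = 6 each). Its log2 fold change of 3.24 (SE 0.48) was the largest of the 9 genes in the averaged contrast.

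Blk, the SRC-family kinase downstream of the receptor, had 6.01, 7.71 and 11.1 CPM in KO females, 8.65, 5.48 and 1.46 CPM in KO males, 4.75, 3.11 and 0.774 CPM in WT females and 1.41, 1.10 and 0.639 CPM in WT males. KO male 3 held 15 counts of Blk, next to 436 of Ms4a1 and 500 of Cd79a; it had rank 1 of 12 libraries for Ms4a1 and rank 8 for Blk. The Blk to Cd79a count ratio was 0.03 in KO male 3, against a median of 0.186 over the 6 KO libraries and 0.184 over the 6 WT libraries. Blk averaged 6.74 ± 3.28 CPM in KO libraries and 1.96 ± 1.63 CPM in WT libraries (SD, n = 6 each), with a log2 fold change of 1.91 (SE 0.466).

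Ebf1, the factor that opens the B-lineage programme, had 3.24, 4.45 and 7.84 CPM in KO females, 5.82, 3.75 and 5.24 CPM in KO males, 4.75, 1.98 and 0.852 CPM in WT females and 0.761, 0.138 and 0.128 CPM in WT males. It averaged 5.06 ± 1.66 CPM in KO libraries and 1.44 ± 1.76 CPM in WT libraries (SD, n = 6 each), and its log2 fold change was 2.40 (SE 0.504). Pax5, which maintains B-cell identity, was near the detection limit, with 15, 11 and 10 counts in KO females, 12, 1 and 0 counts in KO males, 23, 5 and 2 counts in WT females and 2, 0 and 0 counts in WT males. WT female 1 had the highest Pax5 level, 1.54 CPM, and KO male 3 had no Pax5 count although it had 54 counts of Ebf1. Pax5 averaged 0.651 ± 0.478 CPM in KO libraries and 0.357 ± 0.591 CPM in WT libraries (SD, n = 6 each), so its group means differed by less than the spread between libraries. With 13 counts in the KO males and 2 in the WT males, the ratio of Pax5 rates was 8.40, with an exact 95% interval of 1.90 to 76.6 for counting error only. Of those 13 counts 12 came from KO male 1, one of the libraries against the titled sex, and without it the fitted log2 fold change of Pax5 in males was -0.036.

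**Figure D1:**
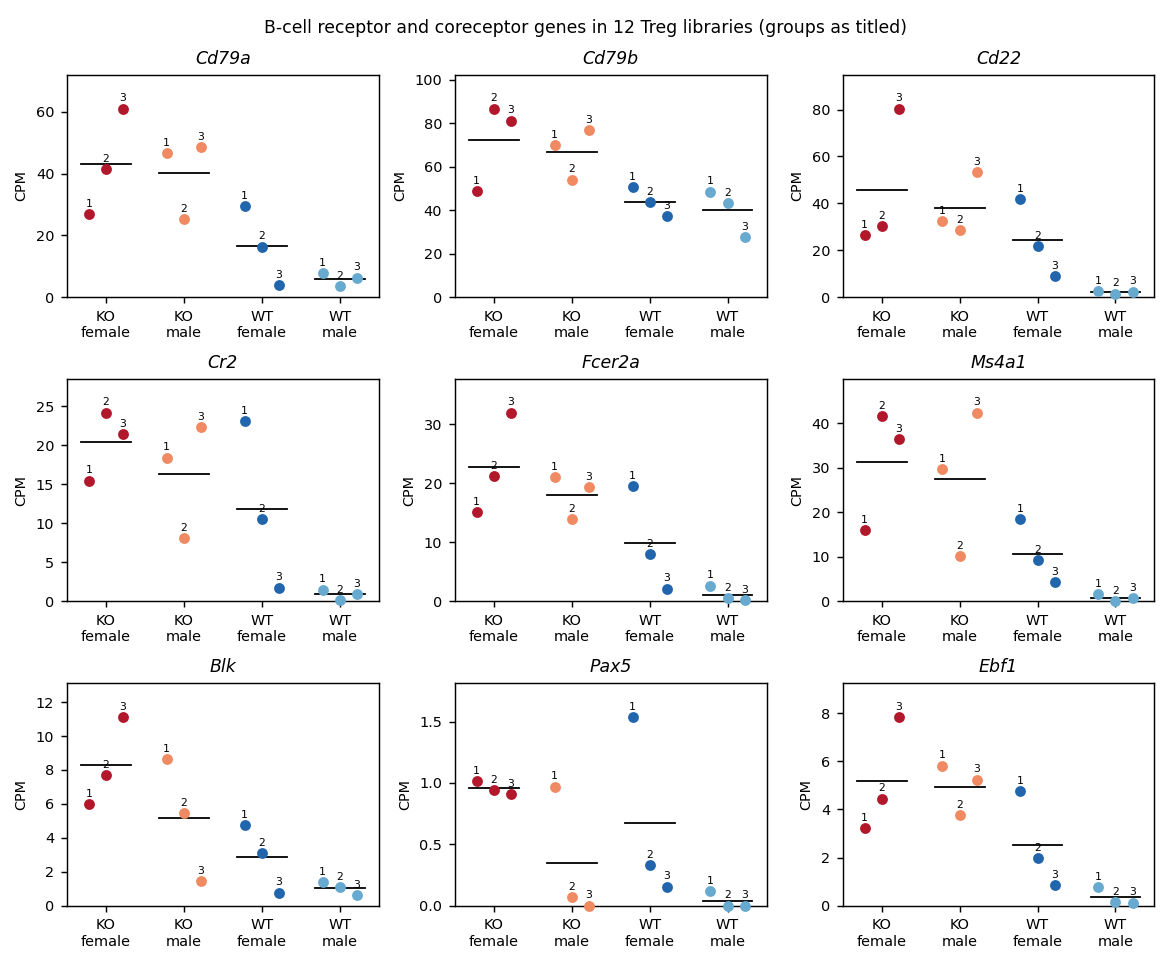
Level of each of the 9 genes in every library, in CPM on the vertical axis of each panel, with KO females, KO males, WT females and WT males from left to right; horizontal lines are group means and numbers beside points are library numbers. WT female 1 lies above the lowest KO library in every panel. The WT male libraries lie low in all panels, least so in that of Cd79b, where they have 27.8 to 48.6 CPM.

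No member had all 6 KO libraries above all 6 WT libraries, where 0.971% of the 13692 genes tested did, and none had all 6 below, where 1.43% did. In titled males, 8 of the 9 genes (all but Pax5) had every KO library above every WT library, beside 6.95% of genes. For Blk this rests on 1.46 CPM (15 counts) in KO male 3 over 1.41 CPM (24 counts) in WT male 1. In titled females Blk alone had every KO library above every WT library, beside 9.20% of genes. WT female 1 was above the lowest KO library for all 9 genes. Without the 4 libraries that went against the titled sex, Cd79a, Cd79b and Ms4a1 had all 3 remaining KO libraries above all 5 remaining WT libraries, beside 3.92% of genes.

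In the edgeR quasi-likelihood fit of the 4 group means, 6 of the 9 genes (Cd79a, Cd22, Cr2, Fcer2a, Ms4a1 and Ebf1) were past an adjusted p of 0.05 with higher levels in KO libraries, beside 206 genes in all (1.50%), of which 83 (0.606%) were higher and 123 (0.898%) lower. Since the genotype contrast was in view when the genes were chosen, their count is a description and no p-value is given for it. The median log2 fold change of the 9 genes was 2.40, against 0.0177 over all genes tested. The count was 2 of the 9 without KO female 3 (12 genes called in all), WT female 2 (46), WT male 2 (39) or WT male 3 (23), in turn, and 2 with the libraries titled WT male #2 summed (31). Without the 4 libraries against the titled sex it was 1 (14 genes in all), with a median log2 fold change of 2.48. In that fit KO male 3, the library low for Blk and Pax5, was the only KO male library. The averaged fold change of Pax5 was then -1.16, that of Blk 1.10 and those of the other 7 genes 0.92 to 3.65.

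In titled males 2 of the 9 genes, Cd22 and Ms4a1, were past the threshold with higher KO levels, beside 10 genes in all (0.0730%), 8 of them higher (0.0584%) and 2 lower (0.0146%), and the median log2 fold change was 3.78. That count was 0 of 0 genes called in all without KO male 1, KO male 3 or any one of the WT male libraries, and 0 of 0 with the libraries titled WT male #2 summed. It was 5 of 14 without WT female 1, 6 of 734 without KO male 2 and 6 of 49 without WT female 3. In titled females none of the 9 was past it, beside 0 genes (0%) in all, and the median was 1.02. Of the 9, 4 had an unadjusted edgeR p under 0.05, beside 1055 of the 13692 genes tested. As the genotype contrast was in view when the genes were chosen, that count is a description and no support. DESeq2 called 7 of the 9 genes in titled males, among 420 genes in all, and 0 in titled females, among 22. Depth moved with the levels: over the 12 libraries the mean standardised level of the 9 genes had a Pearson r of -0.63 and a Spearman rho of -0.58 with the total count. The part of depth in these values was not tested.

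**Figure D2:**
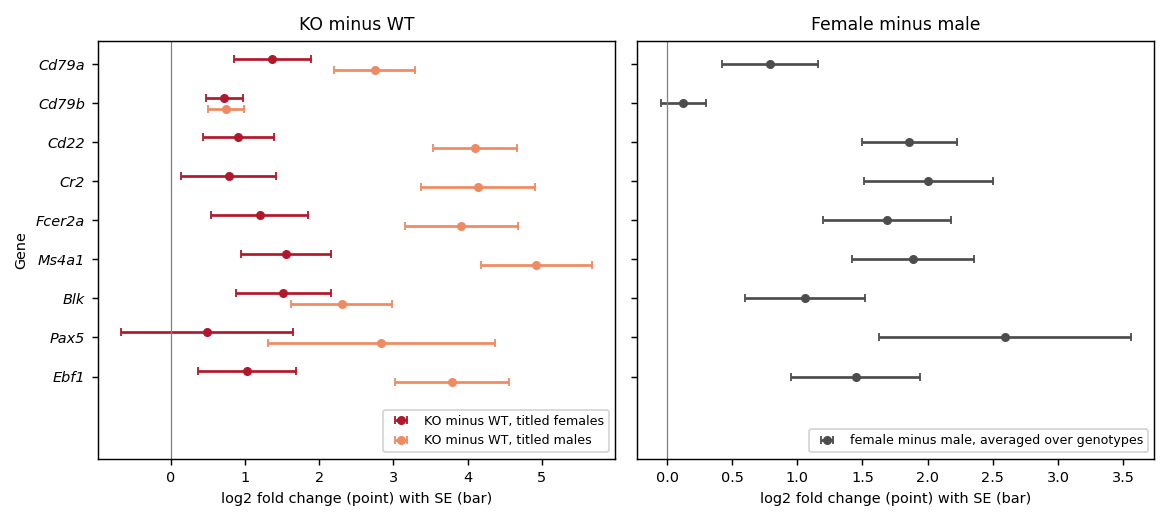
Log2 fold changes (points) with standard errors (bars) from the edgeR fit, KO minus WT in titled females and titled males on the left and female minus male averaged over genotypes on the right. Cd79b has nearly the same fold change in both sexes, 0.72 and 0.74, whereas Cd22, Cr2, Fcer2a, Ms4a1 and Ebf1 lie between 3.78 and 4.93 in males and between 0.78 and 1.55 in females; Pax5 in males rests on 13 counts in KO and 2 in WT libraries.

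The sex contrast was not the one used to choose the genes, but they were chosen with earlier results of these data known. Both contrasts hold the WT male libraries, which were low for most of these genes. The values below are therefore no independent test. Female minus male, averaged over genotypes, the log2 fold changes were 0.79 (SE 0.365) for Cd79a, 0.12 (SE 0.174) for Cd79b, 1.86 (SE 0.363) for Cd22, 2.01 (SE 0.494) for Cr2, 1.69 (SE 0.489) for Fcer2a, 1.89 (SE 0.466) for Ms4a1, 1.06 (SE 0.459) for Blk, 2.60 (SE 0.965) for Pax5 and 1.45 (SE 0.494) for Ebf1. All 9 were positive, and none passed the edgeR test (adjusted p 0.662 to 0.842), as no gene did (0% of 13692). Of the 9 genes 8 had an unadjusted p under 0.05, as had 966 genes in all. By DESeq2, 1 of the 9, Cd22, was past the threshold (adjusted p 0.000535) among 5 genes in all, and by limma none. The titles of 4 libraries did not match their sex-linked counts, and without these libraries the 9 fold changes ranged from 0.15 to 5.38, with none of the 9 past the threshold.

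The difference between the sexes in the genotype effect was negative for all 9 genes, that is, smaller in titled females, with a median of -2.72. It was -3.20 for Cd22, -3.36 for Cr2, -3.38 for Ms4a1, -2.72 for Fcer2a, -2.76 for Ebf1 and -0.03 for Cd79b. None passed the edgeR interaction test (adjusted p 0.9 to 0.994), nor did any gene (0%), while 5 of the 9 and 659 genes had an unadjusted p under 0.05. By DESeq2 Cd22 was past the threshold (adjusted p 0.0149) among 3 genes in all. The signs for Blk, Pax5 and Cd79b turned under some alternatives. Their values were 1.31, 2.56 and 0.01 without the 4 libraries, where KO male 3 was the only KO male library. Those 4, KO male 1, KO male 2, KO female 1 and WT female 2, went against the titled sex. A difference between the sexes therefore cannot be told apart here from wrong titles. The interaction also holds the low WT male libraries and is no independent test.

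The 9 genes went up and down together across libraries. Over the 36 pairs and 12 libraries, the Pearson r of log2 CPM was positive in all 36, with a median of 0.829 and a range of 0.458 to 0.993, and 22 pairs were at 0.8 or above; the median Spearman rho was 0.867. The closest pair was Fcer2a and Ebf1 (r = 0.993) and the loosest Cd79b and Pax5 (r = 0.458). The genes share libraries, depth and the group differences and were chosen with these values known, so no p-value is given. After subtracting the mean of each of the 4 groups, the median r was 0.670 and all 36 pairs were still positive. Without WT male 2 and WT male 3, the libraries farthest from the median of the mean level, the median r was 0.789 and the lowest 0.214.

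Within the 6 WT libraries the median r was 0.892 and all 36 pairs were positive. Within the 6 KO libraries it was 0.629, and 32 of the 36 pairs were positive. There Blk had a median r of 0.06 with the other 8 genes, and Pax5 one of 0.18, although the r between Blk and Pax5 was 0.83. KO male 3 is the library that was low for these 2 genes. Over KO and WT libraries together, the median r was 0.897 without KO male 3 (11 libraries), against 0.829 with all 12. Without the 4 libraries against the titled sex it was 0.854, again over both genotypes. The median r within KO libraries without KO male 3 was not computed.

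**Figure D3:**
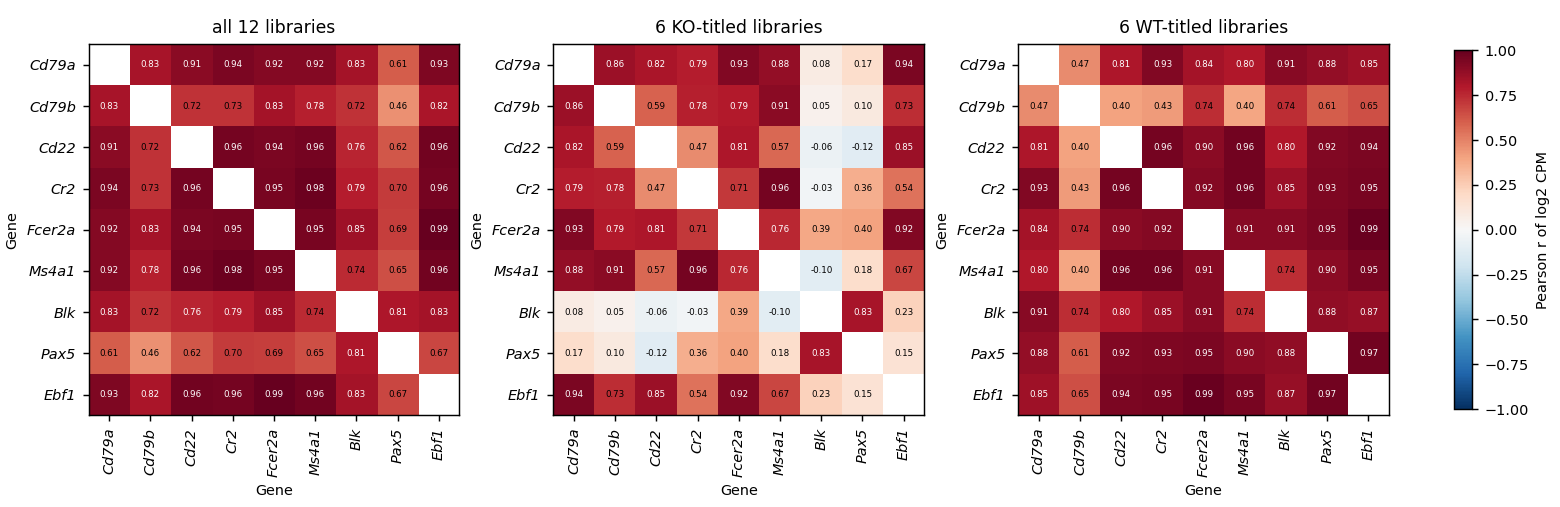
Pearson r of log2 CPM between the genes named on both axes, over all 12 libraries, the 6 KO-titled and the 6 WT-titled libraries, on a colour scale of -1 to 1. Blk and Pax5 form the pale bands in the KO panel, and Cd79b the paler band in the WT panel.

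A mean of the 9 standardised log2 levels ordered the libraries as KO female 3, KO female 2, KO male 1, WT female 1, KO male 3, KO female 1, KO male 2, WT female 2, WT male 1, WT female 3, WT male 3 and WT male 2. The KO libraries spanned 0.21 to 1.09 and the WT libraries -1.50 to 0.63 on this scale. Ratios of counts to those of Cd79a varied by gene. The Ebf1 to Cd79a ratio was 0.108 to 0.148 in KO libraries and 0.02 to 0.216 in WT libraries, and the Fcer2a to Cd79a ratio was 0.398 to 0.561 in KO libraries and 0.04 to 0.657 in WT libraries, where the lowest values rest on 2 Ebf1 counts and 4 Fcer2a counts. In KO libraries the ratio was 0.399 to 1.004 for Ms4a1, 0.03 to 0.223 for Blk and 0 to 0.0376 for Pax5, against 0.0377 to 1.08, 0.1 to 0.302 and 0 to 0.0519 in WT libraries. The Cd79b to Cd79a ratio was 1.33 to 2.14 in KO libraries, against 1.71 in WT female 1, 2.66 in WT female 2, and 4.35 to 11.9 in the other 4 WT libraries. The ratio of highest to lowest library was 3.12 for Cd79b and 16.7 for Cd79a. As Cd79a is the denominator and varied more, the Cd79b to Cd79a ratio is higher where Cd79a is low.

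**Figure D4:**
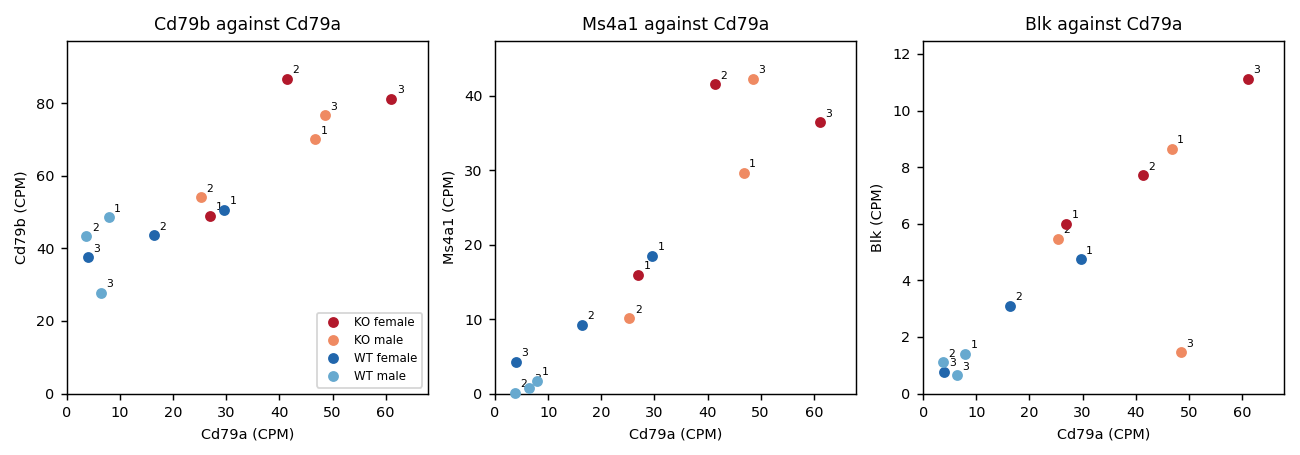
Levels of Cd79b, Ms4a1 and Blk (vertical axes) against that of Cd79a, all in CPM, one point per library coloured by titled group with library numbers beside the points. Cd79b keeps 27.8 CPM or more where Cd79a is lowest, while Ms4a1 and Blk are at 4.26 and 1.41 CPM or less there, and KO male 3 lies low for Blk.

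Divided by exonic length, mean levels over the 12 libraries were 39.0 CPM per kilobase for Cd79b, 18.2 for Cd79a, 5.47 for Cd22, 4.19 for Fcer2a, 2.84 for Ms4a1, 1.61 for Blk, 1.52 for Cr2, 0.333 for Ebf1 and 0.0569 for Pax5. On the same scale Cd3e had 240 CPM per kilobase, Foxp3 165 and Cd4 151. Exons of 4 other genes overlap up to 45.49% of the exonic length of Foxp3, and reads there cannot be assigned to one gene. This limit holds for the Foxp3 levels above as well. The order Cd79b over Cd79a over Cd22, and that of Cr2 over Ebf1 over Pax5, held in 12 of 12 libraries. Cd22 was above Fcer2a in 9 of 12, Fcer2a above Ms4a1 in 10, and Ms4a1 above Blk and Blk above Cr2 in 8 each, so neighbours in the middle of the order were not separated in every library.

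Of 62 other genes of the B-cell receptor pathway and B-cell surface, in 4 lists, 59 were in the table and tested. In the averaged genotype contrast 9 of the 59 rose in KO libraries and none fell, beside 0.606% of all genes higher, and their median log2 fold change was 0.66 against 0.0177 over all genes. The lists were written with earlier results of these data known. Among inhibitory coreceptors 1 of 7 rose, Siglecg, a sialic acid-binding relative of Cd22, with 14.9 ± 6.70 CPM in KO libraries and 2.92 ± 3.01 CPM in WT libraries (SD, n = 6 each; edgeR adjusted p = 0.0322).

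Of 18 genes of proximal signalling 1 rose, the adaptor Blnk, which links the receptor to phospholipase signalling, with 9.30 ± 4.44 CPM in KO libraries and 2.01 ± 3.03 CPM in WT libraries (SD, n = 6 each; edgeR adjusted p = 0.0382). Fyn, a kinase that T cells use and the most abundant gene of that list, had 748.9 ± 84.2 CPM in KO libraries and 831.9 ± 63.6 CPM in WT libraries and did not pass. Of 13 B-lineage transcription factors 1 rose, Mef2c, a factor that B cells and myeloid cells use, with 12.96 ± 4.55 CPM in KO libraries and 5.01 ± 5.21 CPM in WT libraries (edgeR adjusted p = 0.0388).

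Of 21 other surface and antigen-presentation genes 6 rose and 20 had positive fold changes, with a median log2 fold change of 1.33. They were Cd37, a tetraspanin of leukocytes (log2 fold change 0.51), Faim3, the IgM Fc receptor (2.19), the modifiers of peptide loading H2-Ob (0.64) and H2-DMb2 (1.45), the MHC class II invariant chain Cd74 (1.38) and the class II chain H2-Ab1 (1.61), with edgeR adjusted p-values of 0.0196 to 0.0486. The class II genes are also expressed by other antigen-presenting cells. Of the 12 fits that left out 1 library, Faim3 passed in 9 and H2-Ob in 2. None of the 9 pathway genes passed without KO female 3, WT male 2 or WT male 3, in turn, 1 without WT female 2, 2 without KO male 3, 4 without WT female 3 and 5 without KO female 1, and none passed without the 4 libraries against the titled sex.

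Markers of several other cell types differed between genotypes or libraries. Of 10 macrophage and monocyte markers with a row, 9 were tested and none passed, all 9 had positive fold changes, and their summed level was 137 to 367 CPM in KO libraries and 19.6 to 307 CPM in WT libraries. WT female 1 and WT female 2 had 307 and 285 CPM of it, against 19.6 to 46.8 CPM in the other 4 WT libraries, and its Pearson r with the mean level of the 9 genes was 0.884 over the 12 libraries. Within the 6 WT libraries that r was 0.931, and within the 6 KO libraries it was -0.063. Of 9 neutrophil markers with a row, 6 were tested, and S100a8, S100a9, Ngp and Lcn2 rose, with a summed level of 1.86 to 53.2 CPM in KO libraries and 0 to 1.00 CPM in WT libraries. These 4 genes averaged 0.0557 CPM or less in WT libraries, under the floor of 3 counts, and met the low-count filter through the KO libraries, so their calls and the summed level are no independent support. Ngp passed in 19 of 19 alternatives, S100a9 in 12, S100a8 in 6 and Lcn2 in 5. The summed level did not overlap between genotypes, and WT female 1, high for the B-cell genes, had 1.00 CPM of it. The r of the neutrophil sum with the mean level of the 9 genes was 0.731 over the 12 libraries, 0.338 within KO and 0.654 within WT libraries. The part of these cell types in the values above was not tested.

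Follicular dendritic cells also carry CR2 and the IgE receptor. Of 8 markers of that cell type 3 rose, Cr2, Fcer2a and Clu, and without the first pair the summed level was 7.60 to 126 CPM in KO libraries and 7.74 to 26.95 CPM in WT libraries, highest in KO male 3. The r of that sum with the mean level of the 9 genes was 0.555 over the 12 libraries, -0.016 within KO and 0.864 within WT libraries. Clu passed in 5 of 18 alternatives. Of 7 plasma cell markers tested 2010001M09Rik rose and Prdm1, which Tregs also express, fell, with a summed level of 574 to 880 CPM in KO libraries and 523 to 620 CPM in WT libraries, of which Xbp1 made up 391.4 ± 29.6 CPM in KO libraries and 380.2 ± 27.8 CPM in WT libraries (SD, n = 6 each). In 19 alternatives 2010001M09Rik passed 17 times and Prdm1 8 times. Igj, the joining chain of secreted antibodies, had 157 ± 108 CPM in KO libraries and 11.91 ± 12.01 CPM in WT libraries (SD, n = 6 each) and did not pass (log2 fold change 3.83, edgeR adjusted p = 0.0668), though it did in 3 of 19 alternatives. Plasmacytoid dendritic cell markers (7 tested), conventional dendritic cell markers (7), CD8 T cell and NK cell markers (8) and gamma-delta T cell markers (3) had no member past the threshold. Their summed levels were 239 to 346, 96.2 to 169, 128 to 193 and 56.3 to 91.9 CPM in KO libraries, against 181 to 235, 85.1 to 119.7, 84.7 to 162 and 65.8 to 115 CPM in WT libraries. The r of these 4 sums with the mean level of the 9 genes was 0.674, 0.572, 0.590 and -0.479 over the 12 libraries. No gene of any of these lists was at 0 in every library.

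**Figure D5:**
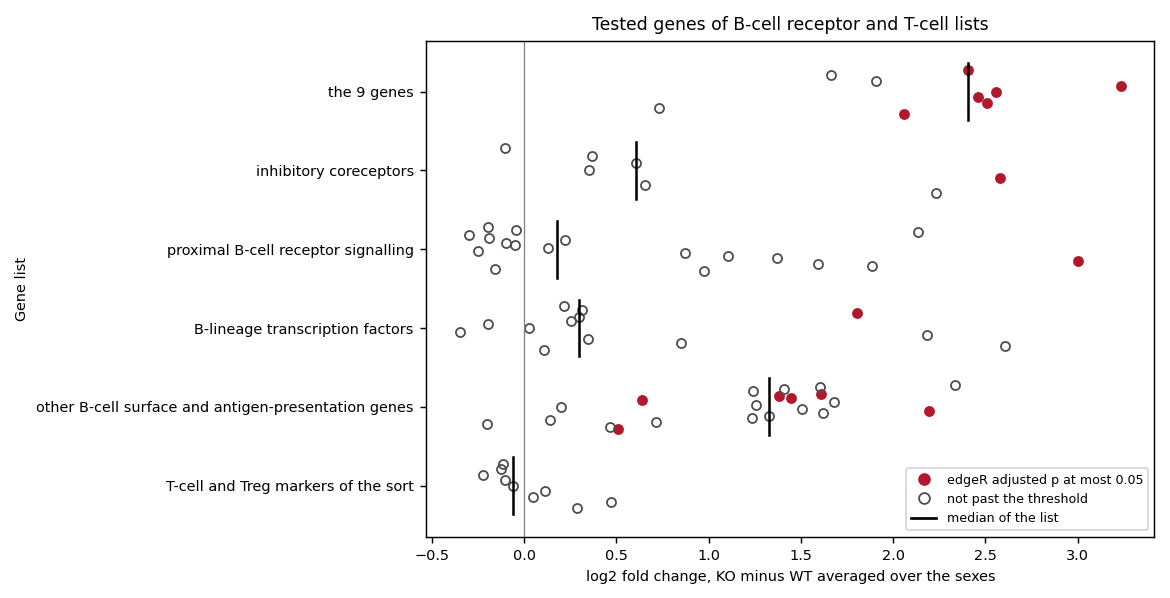
Log2 fold change, KO minus WT averaged over the sexes (horizontal axis), of each tested gene in the lists named on the vertical axis; filled points passed an edgeR adjusted p of 0.05, open points did not, and black bars are list medians. The 9 genes have a median of 2.40, the surface and antigen-presentation genes one of 1.33 and the T-cell and Treg markers one of -0.06; the 9 were chosen with this contrast known.

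Among 10711 tested genes averaging at least 1 CPM, antigen receptor segments and provisional names left out, the 12 with the pattern most like the mean of the 9 genes had a Pearson r of 0.937 to 0.969 over the 12 libraries. In order they were Mef2c, Faim3, Lat2, Ly86, Cd68, Fgd2, Ctsh, Atp8b4, H2-M2, Ifi30, Pld4 and Pdlim4. Mef2c (r = 0.969), Faim3 (r = 0.968) and Ly86 (r = 0.953) belong to the B-cell lists above, and Cd68 (r = 0.952) to the macrophage and monocyte list. Within the 6 KO libraries the r of Faim3 was 0.951 and that of Ctsh 0.399, and within the 6 WT libraries the r of the 12 genes was 0.879 to 0.996. Among the 9 T-cell and Treg markers the r with the mean level ranged from -0.64 for Ctla4 to 0.49 for Cd3e. It was -0.43 for Foxp3 and 0.37 for Cd4, and the other markers lay from -0.25 to 0.25. The r of the summed level of the 9 markers was 0.0003.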

How the data were processed

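RNA had been prepared with NucleoSpin XS, and Nextera XT libraries were built from SMART-Seq v4 cDNA, per the labels' protocols; these kits do not mark strand. Per the submitters' processing notes, GRCm38 was the build, and the tools were edgeR, Subread, featureCounts 1.5.0-p2 and HISAT2 2.0.5. The authors deposited raw counts per gene symbol for 26609 genes, and a table of log2 CPM for 24584 genes; these deposited log2 values were matched to within 5e-14 by recomputing them with a prior count of 0.25. Here, the counts were filtered with filterByExpr (13692 genes, holding 99.8% or more of each library's counts), scaled by TMM, and fitted with edgeR 4.0.16 (R 4.3.3; robust quasi-likelihood F test, two-sided) as 4 group means by title over all 12 libraries. P-values were adjusted by Benjamini-Hochberg across the 13692 genes, calls needed an adjusted p of at most 0.05, and the common biological coefficient of variation was 29.3%. Correlations used log2 CPM with a prior count of 2. DESeq2 1.42.0 size factors and Wald test, limma 3.58.1 on the deposited log2 values, no low-count filter, a title-number block, leaving out each library, summing the libraries titled WT male #2, and leaving out the 4 libraries against the titled sex were the alternatives. The fit was tested on simulated data. Named genes were the 9, the list genes past the threshold or among the highest by CPM, and the 12 genes most alike. Foxp3, Cd4 and Ctla4, as T-cell and Treg markers, and Esr2 and Xist, as label checks, were named outside that rule. The 9 genes and the lists were chosen with earlier results of these data known. One list fixed at the start, and a gene of it, are not reported here.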

Additional observations from a re-analysis of the deposited data

Results flagged for a closer look

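Pax5 stood out in 1 library. WT female 1 had 1.54 CPM (23 counts), the highest of the 6 WT libraries, and its gap to the next of them was 0.785 of the group's whole range, above Dixon's 95% critical value of 0.625. Of 18 groups of 6 libraries (9 genes in KO and in WT) this was the 1 that passed, where chance passes about 1 in 20. The same library was among the 6 highest of all 12 for each of the 9 genes.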

How the results depend on the processing

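The count of the 9 genes past the threshold (all genes in brackets) was, in the averaged genotype contrast, 6 (206), and 1 (9) with the title number as a replicate block, 2 (31) with the libraries titled WT male #2 summed, 1 (14) without the 4 libraries against the titled sex, 8 (627) with no low-count filter and 8 (644) by DESeq2. In males it was 2 (10), and 0 (0) with the block and with the libraries summed, 2 (135) without the 4 libraries, 8 (443) with no filter and 7 (420) by DESeq2. In females it was 0 (0), and 2 (132) with no filter and 0 (22) by DESeq2. Female minus male gave 0 (0), and 5 (149) with no filter, 1 (5) by DESeq2 and 0 (6) without the 4 libraries. The interaction gave 0 (0), and 5 (106) with no filter and 1 (3) by DESeq2. Of 18 pairs of libraries with the same title number, none had a correlation of deviations above 0.1 (-0.266 to 0.0922). Of 36 other pairs, 9 had one (range -0.144 to 0.268). One title number is doubled and 4 titles go against the sex-linked counts, so the numbers may not mark true pairs. The check therefore cannot decide whether libraries were paired.

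Leaving out 1 library gave 2 to 7 (12 to 543) for the averaged contrast, 0 to 6 (0 to 734) in males, 0 (0 to 2) in females, 0 to 1 (0 to 40) for female minus male and 0 (0 to 4) for the interaction. With KO male 3 as the only KO male library, Pax5 without the 4 libraries was -1.16 averaged, -2.44 in males and 2.56 in the interaction. Leaving out 1 library gave Pax5 values of -0.036 (KO male 1) to 5.26 (WT male 1) in males. In the interaction they were -4.78 (WT male 1) to 0.52 (KO male 1). The Blk interaction was 1.31 without the 4 libraries. The Cd79b interaction was 0.023 with the block, 0.041 with the libraries summed, 0.0051 without the 4 libraries and -0.19 to 0.19 on leaving out 1 library. The other 6 genes kept their direction in every comparison and alternative run. The median r, 0.829 over all 12 libraries, was 0.629 in KO libraries and 0.670 within groups. Leaving out 1 of the 12 gave 0.795 to 0.897 over the other 11. Of the 9 other B-cell pathway genes that rose, 0 passed with the block or with the libraries summed, 8 passed by limma, and 9 with the other scaling, no filter or DESeq2. The causes were not tested. Pax5 had 23 counts or fewer per library, and Cr2, Fcer2a, Ms4a1 and Ebf1 had 2 to 8 counts in WT male 2.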
